A study of Mus musculus with 9 samples.

Results

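The insulin-like growth factor (IGF) ligands, their receptors and the secreted IGF-binding proteins were followed in neonatal rat ventricular myocytes (NRVMs) that overexpressed LacZ, Nrf1 or Nrf2. The group was chosen by symbol and holds 10 of the 14819 genes listed for Nrf1 and LacZ: the ligands *Igf1* and *Igf2*, the receptors *Igf1r* and *Igf2r*, and the binding proteins *Igfbp2* to *Igfbp7*. All 10 had reads in each of the 9 libraries and passed the filter on low values in all 3 comparisons.

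The cells came from Sprague-Dawley rats aged 1 to 2 days and were kept in culture for 48 h, infected at a multiplicity of infection of 50 and collected 48 h later, with 3 libraries per group. The adenoviruses carried, under a CMV promoter and beside a red fluorescent protein, the coding region of bacterial β-galactosidase (LacZ, the control), mouse Nrf1 or mouse Nrf2, so every group including the control was infected. Nrf1 and Nrf2 are related stress-responsive transcription factors. GEO's organism field names mouse, whereas the strain, the cell type and the alignment are those of rat, and the cells are described here as rat. Nothing in the labels says that the libraries of a group came from separate animals or cultures, so the p-values measure the spread between these libraries, which may be technical.

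IGF1 and IGF2 are secreted peptides that act on the IGF1 receptor, a tyrosine kinase that signals through IRS adaptors, PI3K and AKT to growth and survival. The IGF2 receptor, which also carries lysosomal enzymes, takes up IGF2 and delivers it for degradation. The binding proteins hold the ligands outside the cell, and proteases such as PAPP-A cleave them and release the ligand. In the heart, IGF signalling is known for its part in the growth of the developing myocardium, and fibroblasts and other non-myocytes are a known source of several of its secreted members.

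The libraries held between 7894221 and 11960378 reads assigned to genes, worked out from the deposited group means, which are the only expression values the tables give. Libraries of a group have no names in the tables and are lettered a, b and c here by falling size factor. *Nfe2l2*, which encodes Nrf2, was at 67554 to 78772 normalised read counts in the libraries labelled Nrf2, against 3399 to 3493 in LacZ and 2815 to 2894 in Nrf1 libraries. Reads from the transgene and from the cells' own gene cannot be told apart there, and the gene for Nrf1 was not analysed here. Of 13 cardiomyocyte markers, 12 were measured and none was at 0 in any group. LacZ library b stood somewhat apart: 52 of 8392 genes with a mean of at least 100 lay over 0.5 on the log2 scale above the other LacZ libraries, and it was the highest LacZ library for 9 of 10 fibroblast markers, 11 of 12 leukocyte markers and 5 of the 10 IGF genes. LacZ library a was the highest for the other 5 IGF genes and for 10 of 12 cardiomyocyte markers. Values without LacZ library b are given where a call rests on that library.

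Compared to LacZ samples, *Igf1*, *Igf2*, *Igfbp3* and *Igfbp4* were lower in both Nrf1 and Nrf2 samples, *Igfbp5* and *Igfbp7* passed the cutoffs as lower in Nrf1 samples, and *Igfbp2* was lower in Nrf1 and higher in Nrf2 samples. A gene was called at a fold change above 1.5 (0.585 on the log2 scale) and an adjusted p under 0.05 in limma, fitted over all genes of a pair. Compared to LacZ samples, 7 of the 10 genes were called lower in Nrf1 samples and 0 were called higher, where 16.5% of all 11202 genes tested were called lower and 11.2% higher. In Nrf2 samples 4 were called lower and 1 higher, where 9.28% of 11386 genes were called lower and 8.78% higher. In Nrf2 compared to Nrf1 samples 2 were called higher and 0 lower, where 10.6% of 11307 genes were called higher and 4.57% lower. For the counts of 0, limma gave 0 of the 10 genes higher in Nrf1 samples at an unadjusted p under 0.05, beside 4035 of all 11202 genes tested. In Nrf2 compared to Nrf1 samples it gave 1 gene, *Igf2r*, lower at that cutoff, beside 3640 of all 11307 genes. The voom method gave 0 calls in both cases. At an adjusted p under 0.05 with no requirement on the fold change, 8 of the 10 genes differed in Nrf1 samples (67.0% of all genes), 9 in Nrf2 samples (54.6%) and 9 between Nrf2 and Nrf1 samples (58.7%). The median log2 change of the 10 genes was -0.98 in Nrf1 and -0.49 in Nrf2 samples compared to LacZ, beside medians of 0.01 and -0.00 over all genes tested. Without LacZ library b, 6 genes were called lower in Nrf1 samples and 3 in Nrf2 samples. Both comparisons with LacZ share the LacZ libraries and are not independent of each other. These are bulk samples, in which fewer cells of a type and less RNA per cell cannot be told apart.

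**Figure D1:**
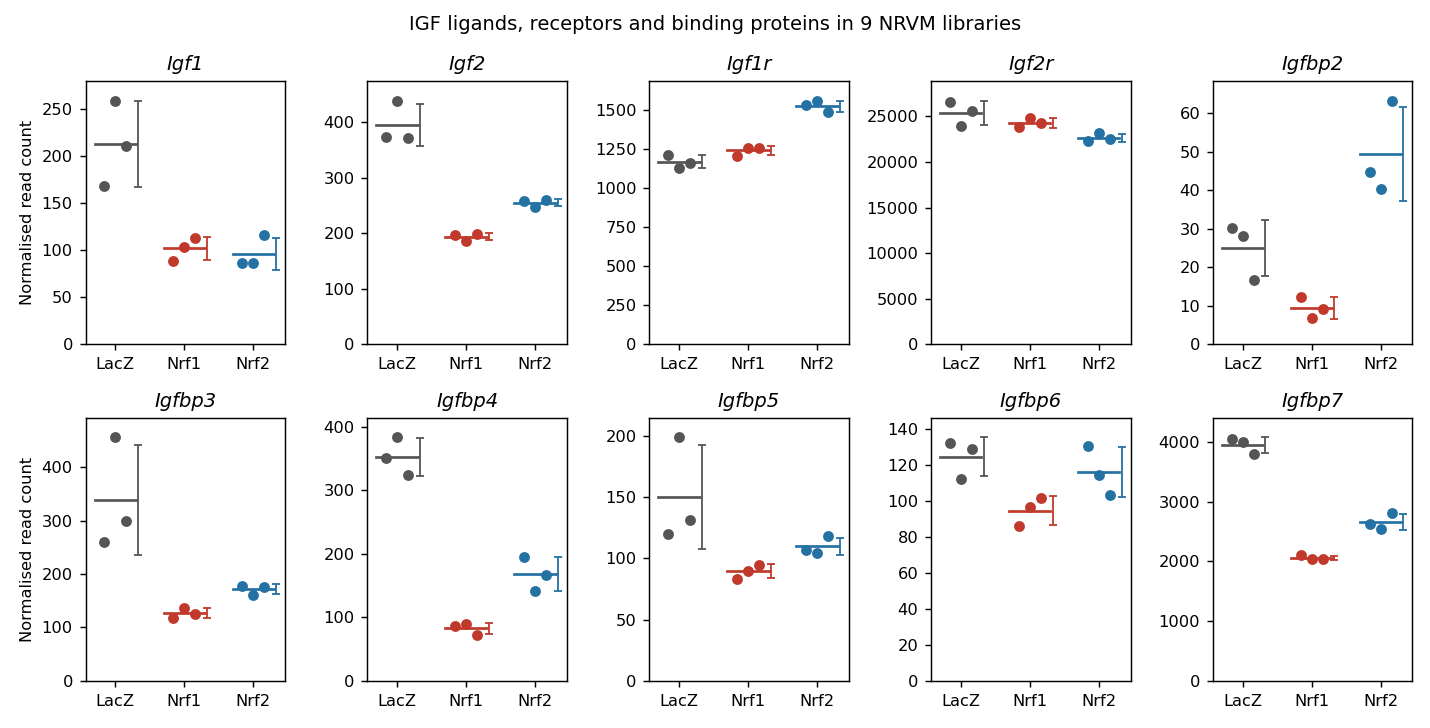
Normalised read count of each IGF gene in the 3 LacZ, 3 Nrf1 and 3 Nrf2 libraries, on one scale for all 9 libraries and with each vertical axis starting at 0. Points are libraries in the order a, b and c, horizontal lines are group means and vertical bars are ± SD (n = 3). Both ligands and *Igfbp3*, *Igfbp4*, *Igfbp5* and *Igfbp7* had all 6 Nrf1 and Nrf2 libraries below the LacZ libraries, and *Igfbp2* was lowest in Nrf1 and highest in Nrf2 samples.

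Both ligands were lower with either factor. *Igf1* had normalised read counts of 169, 259 and 211 in LacZ libraries a, b and c, 89.0, 103 and 113 in Nrf1 libraries, and 86.2, 86.6 and 116 in Nrf2 libraries. Every Nrf1 and Nrf2 library lay below the lowest LacZ library, and the Nrf1 and Nrf2 libraries overlapped. The log2 change of *Igf1* was -1.04 (SE 0.14, adjusted p = 8.42e-06) in Nrf1 and -1.13 (SE 0.15, adjusted p = 2.30e-05) in Nrf2 samples compared to LacZ. Without LacZ library b, the highest, the changes were -0.89 and -0.98, and both stayed past the cutoffs. *Igf1* in Nrf2 and Nrf1 samples differed by -0.09 on the log2 scale, with a 95% confidence interval from -0.38 to 0.19 (adjusted p = 0.581).

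*Igf2*, the ligand of fetal growth, had counts of 373, 439 and 372 in LacZ libraries, 196, 186 and 199 in Nrf1 libraries and 258, 248 and 260 in Nrf2 libraries. The 3 groups did not overlap, with LacZ highest, Nrf2 between and Nrf1 lowest. The log2 change of *Igf2* was -1.02 (SE 0.08, adjusted p = 2.38e-08) in Nrf1 samples and -0.62 (SE 0.08, adjusted p = 1.03e-05) in Nrf2 samples. Without LacZ library b the change in Nrf2 samples was -0.54, under the fold cutoff, with an adjusted p of 2.22e-05. *Igf2* was higher with Nrf2 than with Nrf1 by 0.39 (SE 0.07, adjusted p = 1.91e-04), under the fold cutoff. Of the ligands, then, the Nrf1 and Nrf2 libraries separated for *Igf2* and overlapped for *Igf1*.

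Neither receptor was called in any comparison. *Igf1r*, the signalling receptor for both ligands, had counts of 1210, 1127 and 1162 in LacZ, 1205, 1256 and 1257 in Nrf1 and 1531, 1553 and 1482 in Nrf2 libraries. The Nrf2 libraries were the highest and stood apart from all others, and the LacZ and Nrf1 libraries overlapped. The log2 change of *Igf1r* was 0.39 (SE 0.04, adjusted p = 3.42e-06) in Nrf2 samples compared to LacZ and 0.29 (SE 0.04, adjusted p = 1.42e-06) compared to Nrf1, both under the fold cutoff. In Nrf1 samples it was 0.09, with an interval from -0.01 to 0.18 (adjusted p = 0.10).

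*Igf2r*, which clears IGF2, was at 26617, 23936 and 25602 in LacZ, 23792, 24811 and 24232 in Nrf1 and 22288, 23166 and 22504 in Nrf2 libraries. The Nrf2 libraries were the lowest, and LacZ and Nrf1 libraries overlapped. Compared to LacZ, *Igf2r* in Nrf2 samples had a log2 change of -0.16 (SE 0.04, adjusted p = 0.00253), and compared to Nrf1 it was -0.10 (SE 0.02, adjusted p = 1.37e-04). In Nrf1 samples it was -0.07, with an interval from -0.15 to 0.01 (adjusted p = 0.137). The receptors thus moved by less than the ligands in the comparisons with LacZ, and all 6 of the receptors' changes were under the fold cutoff. Between Nrf2 and Nrf1 samples, where *Igf1* did not pass the test, *Igf1r* and *Igf2r* passed it in opposite directions.

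Among the binding proteins, *Igfbp4* had the largest decrease. *Igfbp4*, which holds IGFs away from the receptor until PAPP-A cleaves it, had counts of 351, 384 and 325 in LacZ libraries, 86.2, 89.7 and 72.0 in Nrf1 libraries and 196, 142 and 167 in Nrf2 libraries. The 3 groups were separate, and the Nrf1 level was 23.4% of LacZ against 47.6% for Nrf2. The log2 change was -2.09 (SE 0.11, adjusted p = 1.10e-10) in Nrf1 and -1.08 (SE 0.11, adjusted p = 1.21e-06) in Nrf2 samples. *Igfbp4* was called higher with Nrf2 than with Nrf1, by 1.00 (SE 0.13, adjusted p = 2.06e-06).

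*Igfbp3*, the main carrier of IGFs in blood, had counts of 259, 456 and 300 in LacZ libraries, 118, 137 and 126 in Nrf1 and 178, 161 and 175 in Nrf2 libraries. The groups again did not overlap, although the LacZ libraries were spread widely (mean 338 ± 104, SD, n = 3). Relative to LacZ, *Igfbp3* had a log2 change of -1.37 (SE 0.15, adjusted p = 9.69e-07) in Nrf1 and -0.93 (SE 0.15, adjusted p = 1.21e-04) in Nrf2 samples. Without LacZ library b the changes were -1.13 and -0.70, both past the cutoffs. *Igfbp3* was higher with Nrf2 than with Nrf1 by 0.43 (SE 0.09, adjusted p = 8.06e-04), which is under the fold cutoff.

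*Igfbp7*, a secreted matrix protein that binds IGFs only weakly, had counts of 4049, 3995 and 3801 in LacZ libraries, 2100, 2042 and 2040 in Nrf1 and 2626, 2545 and 2807 in Nrf2 libraries. Its libraries varied little within a group and the 3 groups were far apart. In Nrf1 samples *Igfbp7* had a log2 change of -0.94 (SE 0.04, adjusted p = 5.13e-12). In Nrf2 samples it was -0.57 (SE 0.04, adjusted p = 5.50e-08), just under the fold cutoff, and it passed that cutoff without LacZ library c (-0.60) or Nrf2 library c (-0.61). *Igfbp7* was higher with Nrf2 than with Nrf1 by 0.36 (SE 0.04, adjusted p = 8.07e-08).

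*Igfbp5*, which binds IGFs in the extracellular matrix, had counts of 120, 199 and 132 in LacZ libraries, 83.3, 89.7 and 94.9 in Nrf1 and 107, 104 and 118 in Nrf2 libraries. The groups did not overlap, but the lowest LacZ and the highest Nrf2 library were close to each other. For *Igfbp5* the log2 change was -0.71 (SE 0.16, adjusted p = 9.89e-04) in Nrf1 and -0.41 (SE 0.16, adjusted p = 0.0382) in Nrf2 samples, and that in Nrf1 samples was past the fold cutoff. Without LacZ library b these were -0.49, no longer past the fold cutoff, and -0.19 (adjusted p = 0.193). *Igfbp5* differed by 0.29 (SE 0.11, adjusted p = 0.0361) between Nrf2 and Nrf1 samples.

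*Igfbp6*, which prefers IGF2 as its ligand, had counts of 133, 112 and 129 in LacZ, 86.2, 96.6 and 102 in Nrf1 and 131, 115 and 103 in Nrf2 libraries. The Nrf1 libraries were the lowest, and LacZ and Nrf2 libraries overlapped. Nrf1 samples had a log2 change of *Igfbp6* of -0.39 (SE 0.12, adjusted p = 0.00948), under the fold cutoff. In Nrf2 samples it was -0.10, with an interval from -0.36 to 0.15 (adjusted p = 0.491). *Igfbp6* differed by 0.28 (SE 0.12, adjusted p = 0.0482) between Nrf2 and Nrf1 samples.

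*Igfbp2* was the only one of the 10 genes called in opposite directions with Nrf1 and Nrf2. *Igfbp2*, an IGF-binding protein abundant in fetal tissues, had counts of 30.2, 28.1 and 16.6 in LacZ libraries, 12.3, 6.83 and 9.15 in Nrf1 and 44.7, 40.2 and 63.3 in Nrf2 libraries. The 3 groups did not overlap, with Nrf1 lowest and Nrf2 highest. These levels rested on few reads, 14 to 30 per LacZ library, 7 to 13 per Nrf1 library and 46 to 65 per Nrf2 library. Compared to LacZ, the log2 change of *Igfbp2* was -1.30 (SE 0.32, adjusted p = 0.00231) in Nrf1 and 0.98 (SE 0.25, adjusted p = 0.00424) in Nrf2 samples. Tested directly, *Igfbp2* was higher with Nrf2 than with Nrf1 by 2.28 (SE 0.26, adjusted p = 6.89e-07). Leaving out any library kept the calls, with changes from -1.56 to -1.11 in Nrf1 samples, from 0.72 to 1.13 in Nrf2 samples, and from 2.09 to 2.48 between them. Its mean in Nrf1 samples was under the filter limit of 10, and *Igfbp2* passed there through the average with the other group. *Igfbp1*, a binding protein named here although it fell outside the rule for named genes, had 1 to 4 reads per library and was not tested.

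**Figure D2:**
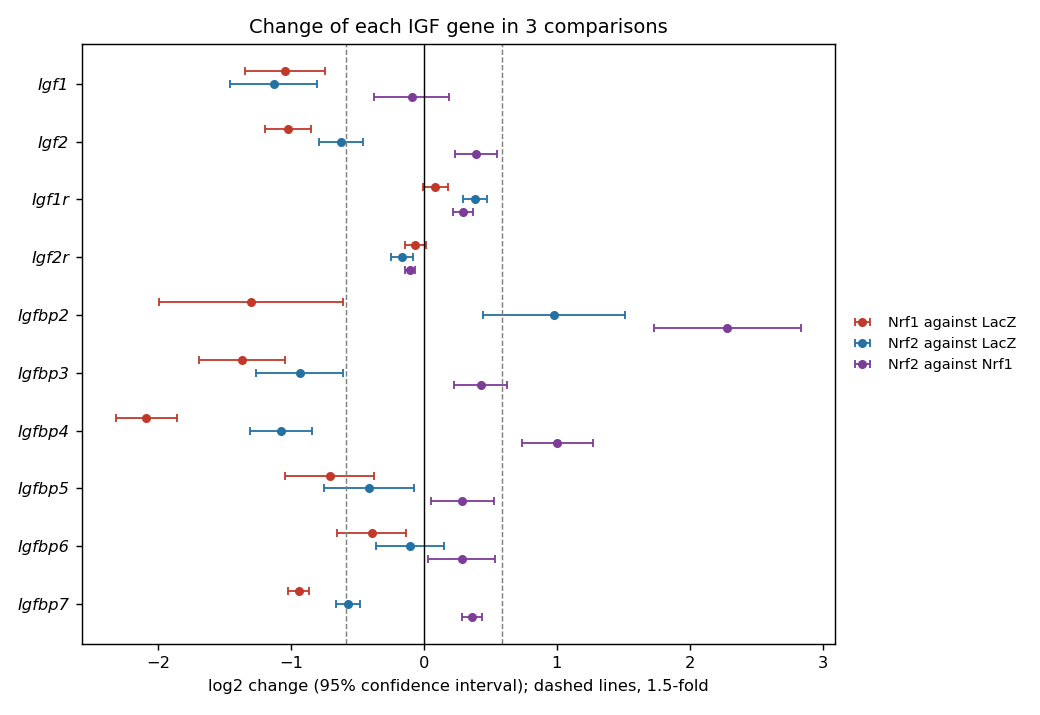
Log2 change of each IGF gene in 3 comparisons, Nrf1 against LacZ, Nrf2 against LacZ and Nrf2 against Nrf1, with points for the limma estimate and bars for its 95% confidence interval; dashed lines mark 1.5-fold. Points left of 0 are lower in the group named first, as for *Igfbp4* at -2.09 and -1.08 compared to LacZ, and *Igfbp2* lies on opposite sides of 0 for Nrf1 (-1.30) and Nrf2 (0.98).

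Set side by side, the direct comparison of both factors placed 8 of the 10 genes higher in all Nrf2 libraries than in all Nrf1 libraries and 1, *Igf2r*, lower, where 31.1% and 32.7% of all genes tested were separated in those directions. For *Igf2*, *Igfbp3*, *Igfbp4*, *Igfbp5* and *Igfbp7* the Nrf2 level lay between those of Nrf1 and LacZ. Compared to LacZ, 8 genes had all Nrf1 libraries lower (34.2% of all genes) and 0 had them all higher (36.5%). Compared to LacZ, 7 genes had all Nrf2 libraries lower (30.0%) and 2, *Igf1r* and *Igfbp2*, had them all higher (31.6%).

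Of 14 other genes of the IGF family and its extracellular regulators, 8 could be tested. In Nrf1 samples 4 of them were called lower, *Pappa*, *Stc2*, *Htra1* and *H19*, and 0 higher, beside 16.5% of all genes tested called lower and 11.2% higher. At an unadjusted p under 0.05 in limma, 2 of the 8 were higher, beside 4035 of all 11202 genes tested. *Pappa* encodes the protease that cleaves IGFBP4. *Pappa* had counts of 261, 311 and 257 in LacZ libraries, 101, 93.6 and 84.6 in Nrf1 and 218, 213 and 223 in Nrf2 libraries. As for *Igfbp4*, its substrate, the groups were separate with Nrf1 lowest, and the Nrf2 level of *Pappa* was much closer to LacZ. Its log2 change was -1.56 (SE 0.11, adjusted p = 4.11e-09) in Nrf1 samples, -0.33 (SE 0.09, adjusted p = 0.00456) in Nrf2 samples and 1.22 (SE 0.10, adjusted p = 5.49e-09) in Nrf2 compared to Nrf1 samples. *Stc2*, an inhibitor of PAPP-A, had counts of 152, 154 and 204 in LacZ libraries, 44.5, 52.7 and 67.5 in Nrf1 and 72.9, 63.9 and 60.4 in Nrf2 libraries. It was called lower with both factors, with log2 changes of -1.62 (SE 0.16, adjusted p = 2.99e-07) and -1.35 (SE 0.14, adjusted p = 1.31e-06), and the Nrf1 and Nrf2 libraries overlapped.

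*Htra1*, a secreted serine protease that can cleave IGFBP5, had a log2 change of -0.65 (SE 0.03, adjusted p = 1.79e-10) in Nrf1 and -0.46 (SE 0.05, adjusted p = 1.19e-06) in Nrf2 samples, and only the first was past the fold cutoff. *H19*, a non-coding RNA imprinted together with its neighbour *Igf2*, had counts of 85.4, 228 and 88.9 in LacZ, 29.4, 24.4 and 24.0 in Nrf1 and 95.3, 35.0 and 147 in Nrf2 libraries. The Nrf1 libraries were low and close together, whereas LacZ library b lay far above the other LacZ libraries and the Nrf2 libraries were spread widely. For *H19* the log2 change was -2.18 (SE 0.28, adjusted p = 5.58e-06) in Nrf1 samples and -1.72 without LacZ library b. In Nrf2 samples it was -0.60, with an interval from -1.50 to 0.31 (adjusted p = 0.248). It was -0.14 without LacZ library b and -0.02 without Nrf2 library b. In Nrf2 compared to Nrf1 samples the change of *H19* was 1.58 (SE 0.33, adjusted p = 5.20e-04), and 2.15 without Nrf2 library b. *Insr*, the insulin receptor, which can pair with the IGF1 receptor, had a log2 change of -0.09 in Nrf1 samples (interval -0.21 to 0.03) and of 0.25 (SE 0.06, adjusted p = 0.00276) in Nrf2 samples, under the fold cutoff. *Igfals*, which stabilises IGF complexes in blood, had 0 to 7 reads per library and was not tested.

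Inside the cell, 29 of 31 listed genes of IGF1 receptor signalling were tested. In Nrf1 samples 2 were called higher, *Grb14* and *Rptor*, and 1 lower, *Inpp5d*, where 11.2% of all genes tested were called higher and 16.5% lower. In Nrf2 samples 2 were called higher, *Grb14* and *Tsc2*, and 1 lower, *Irs1*, where 8.78% of all genes were called higher and 9.28% lower. Between Nrf2 and Nrf1 samples limma called 0 in either direction, where 10.6% of all genes were called higher and 4.57% lower. At an unadjusted p under 0.05 in limma, 11 of the 29 genes were higher and 13 lower, beside 3446 and 3640 of all 11307 genes tested. Over both pathway lists together, limma and voom each called 2 genes higher and 0 lower in Nrf2 compared to Nrf1 samples. Those called by limma were *Pappa* and *H19*, which are outside the intracellular list. The median log2 change of the tested genes was 0.12 in Nrf1 and 0.05 in Nrf2 samples.

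*Grb14*, an adaptor that restrains the insulin receptor, had counts of 1179, 1093 and 1191 in LacZ libraries, 2613, 2588 and 2583 in Nrf1 and 1818, 1826 and 1763 in Nrf2 libraries. The groups were far apart, with Nrf1 highest, an order opposite to that of *Igf2*. Its log2 change was 1.17 (SE 0.04, adjusted p = 1.86e-12) in Nrf1 and 0.64 (SE 0.04, adjusted p = 2.15e-08) in Nrf2 samples. *Rptor*, a subunit of mTOR complex 1, changed by 0.71 (SE 0.05, adjusted p = 3.19e-09) in Nrf1 samples, and was at 0.14 in Nrf2 samples (interval 0.01 to 0.27, adjusted p = 0.0719). *Tsc2*, an inhibitor of that complex, changed by 0.46 (SE 0.05, adjusted p = 5.45e-07) in Nrf1 and 0.75 (SE 0.05, adjusted p = 1.80e-08) in Nrf2 samples.

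Among the genes called lower, *Inpp5d*, a phosphatase best known from leukocytes, changed by -0.62 (SE 0.13, adjusted p = 6.65e-04) in Nrf1 samples and by -0.55 without LacZ library b, then under the fold cutoff. *Irs1*, an adaptor at the activated receptor, had counts of 744, 847 and 798 in LacZ libraries, 687, 636 and 662 in Nrf1 and 453, 496 and 514 in Nrf2 libraries. Unlike *Igf2* and *Igfbp4*, *Irs1* was lowest in Nrf2 samples, with a log2 change of -0.71 (SE 0.06, adjusted p = 4.25e-07) against -0.27 (SE 0.06, adjusted p = 6.78e-04) in Nrf1 samples. *Irs2*, the related adaptor, was at 0.00 in Nrf1 (interval -0.09 to 0.10) and -0.26 (SE 0.05, adjusted p = 3.01e-04) in Nrf2 samples.

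**Figure D3:**
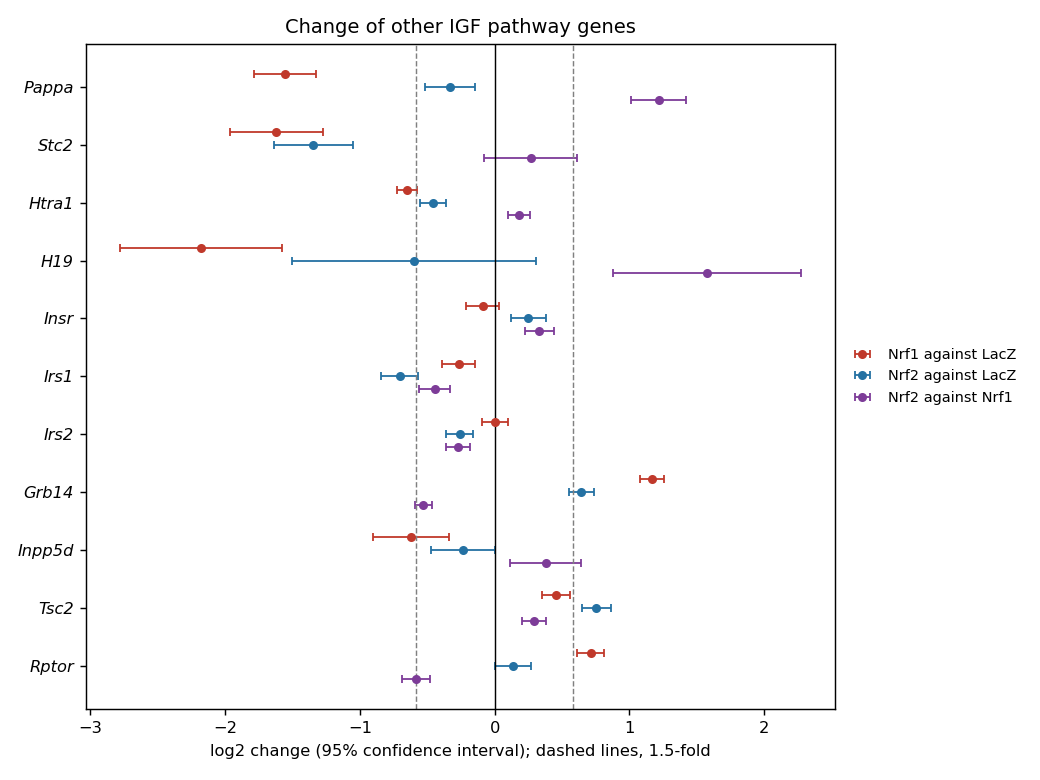
Log2 change of 11 other IGF pathway genes in the 3 comparisons, with 95% confidence intervals from limma and dashed lines at 1.5-fold. *Pappa*, *Stc2* and the non-coding RNA *H19* lie furthest left for Nrf1 compared to LacZ, at -1.56, -1.62 and -2.18. *Grb14* lies furthest right for Nrf1 compared to LacZ, at 1.17.

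Markers of other cell types also differed between the groups, and the lists did not all move the same way. The summed level of 10 fibroblast markers was 123620 to 129730 in LacZ libraries, 31619 to 34107 in Nrf1 libraries and 64437 to 69645 in Nrf2 libraries, so that Nrf1 samples had 26.0% and Nrf2 samples 53.2% of the LacZ mean. *Col1a1* and *Col3a1* made up most of this sum, at means of 91557 and 26515 of 126050 in LacZ libraries. All 10 fibroblast markers were called lower in Nrf1 and 8 of 10 in Nrf2 samples. Of all genes tested, 16.5% were called lower and 11.2% higher in Nrf1 samples, and 9.28% and 8.78% in Nrf2 samples. These shares also stand beside the counts of the lists below. The median log2 change of the fibroblast markers was -1.76 in Nrf1 and -0.97 in Nrf2 samples. Between Nrf2 and Nrf1 samples 7 were called higher and 1 lower, where 10.6% and 4.57% of all genes were. *Tcf21* was lowest in Nrf2 samples, at a mean of 21.6 against 40.8 in Nrf1 libraries. The sum of 12 leukocyte markers was 51.2% of LacZ in Nrf1 and 51.5% in Nrf2 samples, with 9 of 10 tested called lower in each. The exception in Nrf1 samples, *Csf1r*, was at 135% of LacZ (log2 change 0.45, adjusted p = 0.00394 in limma), under the fold cutoff. The endothelial markers summed to 59.6% and 59.8%, with 7 of 10 called lower in Nrf1 samples, and 6 lower and 1, *Egfl7*, higher in Nrf2 samples. Those not called in Nrf1 samples were *Egfl7* at 127%, *Kdr* at 111% and *Tek* at 72.6% of LacZ. *Eng* made up most of the endothelial sum, at a mean of 2894 of 5092 in LacZ libraries. The sum of 5 epicardial markers was 55.3% of LacZ in Nrf1 samples, with 4 called lower, and 109% in Nrf2 samples, where its members went both ways, with 1 (*Wt1*) called lower and 1 (*Krt19*) higher. The sum of 7 mural markers was 157% and 130%, but it was carried by *Acta2* and *Tagln*, at means of 31321 and 24207 of 62028 in Nrf1 libraries. The paper uses *Acta2* as a marker of immature cardiomyocytes in neonatal mouse hearts, so this gene is not particular to mural cells. Of the mural markers, 3 were called lower and 2 higher in Nrf1 samples and 1 lower and 1 higher in Nrf2 samples, with median log2 changes of -0.13 and -0.06. The only marker at 0 in a whole group was *Cx3cr1* of the leukocyte list, in Nrf1 samples. The cardiomyocyte markers summed to 98.4% of LacZ in Nrf1 samples, but they went both ways, with a median log2 change of -0.28. Of 12, 4 were called lower, *Myh7* (47.7% of LacZ), *Tnni3* (51.2%), *Tnni1* (52.4%) and *Myl2* (50.0%). The 2 called higher were *Actc1* (154%) and *Ryr2* (178%), and *Actc1* had the largest mean in Nrf1 libraries, 57490 of a sum of 151930. In Nrf2 samples the markers summed to 112%. There limma called 0 in either direction, where 8.78% of all genes tested were called higher and 9.28% lower. At an unadjusted p under 0.05 in limma, 7 of these markers were higher and 2 lower, beside 3503 and 3298 of all 11386 genes tested. Beside these, *Igfbp4* was at 23.4% of LacZ in Nrf1 and 47.6% in Nrf2 samples, *Igf2* at 49.0% and 64.7%, and *Igf1* at 47.7% and 45.2%. *Igfbp3* was at 37.4% and 50.7%, *Igfbp7* at 52.1% and 67.4%, and *Igfbp5* at 59.5% and 73.1%. The remaining genes were *Igfbp6* at 75.9% and 93.3%, *Igf2r* at 95.5% and 89.3%, *Igf1r* at 106% and 131%, and *Igfbp2* at 37.7% and 198%. The part of these other cell types in the changes of the IGF genes was not tested.

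**Figure D4:**
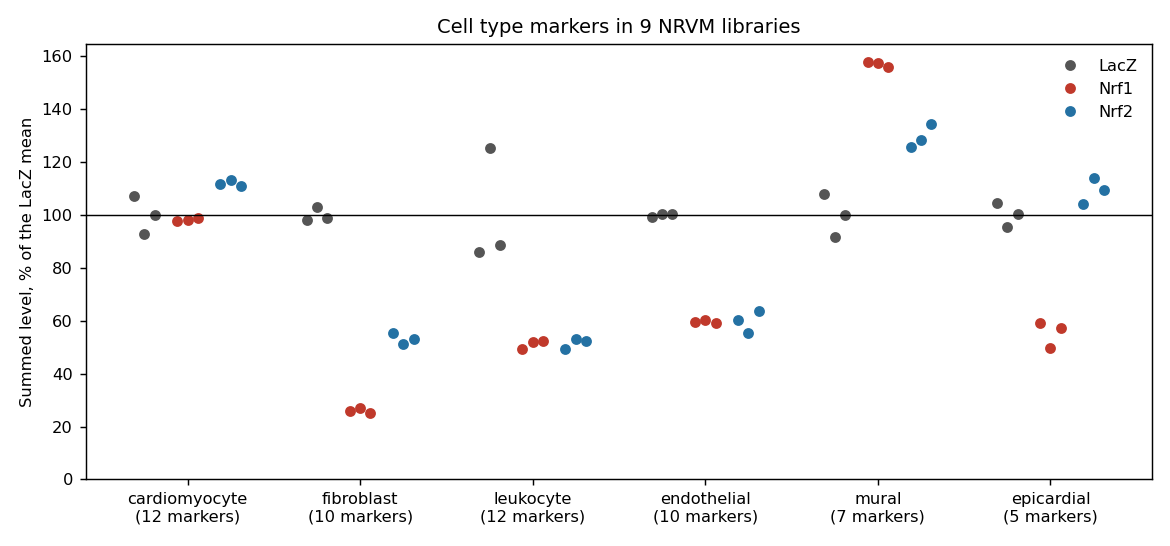
Summed level of 6 lists of cell type markers in each library, as a percentage of the mean of the LacZ libraries; points are libraries a, b and c of each group, the horizontal line is at 100% and the axis starts at 0. The fibroblast sum, mostly *Col1a1* and *Col3a1*, was lowest in Nrf1 (26.0%) and intermediate in Nrf2 samples (53.2%). The leukocyte and endothelial sums were lower with both, and LacZ library b was the highest LacZ library for leukocyte markers.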

How the data were processed

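RNA of NRVMs from 9 libraries, 3 each for LacZ, Nrf1 and Nrf2, was sequenced by the authors as stranded, single-end mRNA libraries. Per the paper's methods and the submitters' processing notes, the authors used FastQC 0.11.4 for quality control, HISAT2 2.0.4 for alignment (build Rnor 6.0), SAMtools 0.1.18 to drop duplicates, featureCounts 1.6.0 for counting and edgeR 3.20.5 for the group comparisons. Duplicate removal can lower the counts of the most abundant genes. The strand setting of the counting is not given in the sources used here, so reads of overlapping antisense genes may be included.

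The authors deposited 1 table per pair of groups. Its signal columns give, for each group, the average of the size-factor-normalised counts of 3 libraries, as the authors deposited it. The tables also hold the authors' fold changes and p-values, which were not used, and 0 columns of single samples were left unused. Each group appears in 2 tables with different size factors, and a group mean is a sum of whole reads times 1 step per library. The steps were read from genes with few reads, and the whole reads of each library were then solved jointly from both tables. This gave 1 solution for 14678 of 14679 genes in LacZ, 14579 of 14579 in Nrf1 and 14746 of 14746 in Nrf2 samples. Decoding genes with a mean of up to 20 from each table alone gave the same reads for 3906 of 3906, 3982 of 3982 and 4020 of 4020 genes. On simulated data the recovery gave 0 wrong reads. The one LacZ gene without a solution, *Fn1*, and genes that could not be matched between tables, among them 26 symbols written as dates, were left out of the fits.

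Reads divided by the authors' size factors were compared within each pair with limma 3.58.1 (limma-trend, R 4.3.3) on log2(value + 1), over genes with an average of both group means of at least 10, with Benjamini-Hochberg adjustment over all of them. Fold changes are therefore on the log2(value + 1) scale, which understates the change of low genes. The study's cutoffs were used: over 1.5-fold in either direction with an adjusted p below 0.05. Levels printed per library use 1 set of median-of-ratios size factors over all 9 libraries, so that they may be compared across groups. The percentages of LacZ given for single genes use the scale of the pair. Levels of the IGF genes were not compared with each other, because no rat transcript lengths were at hand. The marker sums, and the parts of single markers in them, are of counts not corrected for transcript length. On simulated data for Nrf1 and LacZ (11202 genes), 45 of 50 genes changed by 1 on the log2 scale and 9 of 50 changed by 0.5 were called, with 5 of 11002 unchanged genes called. The simulation gave every gene the same spread between libraries beyond counting noise, and no library stood apart. These counts may therefore not hold for genes whose LacZ libraries were spread widely, such as *Igfbp3*.

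The IGF genes, the pathway lists and the marker lists were chosen with earlier results of these data known. All IGF genes are named, and of the pathway lists those called in any comparison with an average mean of at least 100, plus *Insr*, *Igfals*, *H19*, *Irs1* and *Irs2*. One gene of the intracellular list is not reported here and was taken out of its counts. The alternatives were other filters, pseudocounts of 0.5 and 8, a fold cutoff of 2 or none, re-centring on the median of genes averaging 100 or more, 1 fit over all 9 libraries, voom on the whole reads, and leaving out each library in turn.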

Additional observations from a re-analysis of the deposited data

How the results depend on the processing

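No result changed direction past the cutoffs. No paired analysis was possible because the deposited columns carry no replicate numbers, so the replicate block was not run. A fold cutoff of 2 gave, among the IGF genes, 0 higher and 2 lower in Nrf2 samples compared to LacZ, and among the other pathway genes 1 higher and 3 lower in Nrf1 and 0 higher and 1 lower in Nrf2 samples. Without a fold cutoff, 2 IGF genes were higher and 7 lower in Nrf2 samples compared to LacZ, and 8 were higher and 1 lower compared to Nrf1. Without it the other pathway genes numbered 16 higher and 14 lower in Nrf1 samples, 12 and 7 in Nrf2 samples, and 14 and 14 in Nrf2 compared to Nrf1 samples. With a mean of at least 100, which removes *Igfbp2*, 0 IGF genes were higher in Nrf2 samples compared to LacZ and 1 compared to Nrf1, and 1 other pathway gene was higher compared to Nrf1. Re-centring shifted all genes by 0.058, 0.017 and -0.036 on the log2 scale in Nrf1 against LacZ, Nrf2 against LacZ and Nrf2 against Nrf1. It gave 3 pathway genes higher in Nrf2 compared to Nrf1 samples and moved *Igfbp7* in Nrf2 samples past the fold cutoff, at -0.59. Leaving out a library gave 6 to 7 IGF genes lower in Nrf1 and 3 to 5 in Nrf2 samples, and 0 to 1 other pathway gene lower in Nrf2 compared to Nrf1 samples, where *Rptor* lay near the fold cutoff. Of all genes tested, the share called moved as follows. With a fold cutoff of 2 it was 3.85% higher and 8.77% lower in Nrf1 samples, 4.07% and 3.57% in Nrf2 samples, and 5.04% and 1.09% in Nrf2 compared to Nrf1 samples. Without a fold cutoff these were 34.7% and 32.3%, 28.6% and 26%, and 28.6% and 30.2%. With a mean of at least 100, 10.8% were lower in Nrf1 and 6.04% in Nrf2 samples, and 6.58% were higher in Nrf2 compared to Nrf1 samples. Among the single genes named, 891 values kept their side of the cutoffs, 32 passed the cutoffs only under an alternative and 16 no longer passed them. A value that was not called in either setting counted as kept even where its sign changed. That was so for *Irs2* in Nrf1 samples compared to LacZ, at 0.00 and, without LacZ library b, at -0.02. The number of libraries and, for *Igfbp2*, the few reads limit the precision.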
